A study of Mus musculus with 6 samples.

Results

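Fabp4, Csn3 and Usp17la are 3 of the 18193 mouse genes with a probe set of their own on these arrays, and they were chosen by their signal ratio between BRAF-on and BRAF-off, which earlier results of these data had placed near the top, although none is a usual product of a pigment cell. All probe sets that the platform annotation pairs with these symbols were read: 4 for Fabp4, 2 for Csn3 and 1 for Usp17la, or 7 of the 45037 probe sets that are not controls. The cells were melan-a, an immortal melanocyte line grown from epidermal melanoblasts of C57BL/6 embryos. All carried delta-BRAF-ER, an activated BRAF kinase that tamoxifen switches on. The groups had 1 array each: activated BRAF together with ZEB2 (called "with ZEB2" here), with SNAIL2, with TWIST1 or with ZEB1, then BRAF activated with no added factor (BRAF-on), and BRAF not activated (BRAF-off). How long tamoxifen was given, what the BRAF-off cells received in its place, whether cells without a factor carried an empty vector, and whether the lines are clones or pools are not given in the sources used here.

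Fabp4 encodes the fatty acid binding protein of fat cells, a small carrier that shuttles lipids inside the cell and is also made by macrophages and some endothelial cells. Csn3 encodes kappa-casein, the milk protein that keeps casein micelles in suspension, and is normally switched on in the lactating mammary gland by prolactin through STAT5. Usp17la, also called Dub1, encodes a deubiquitinase of a multicopy mouse family first known from cytokine-stimulated blood cells, and members of that family are also transcribed in the 2-cell mouse embryo.

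Each group being a single array, the spread within a group is unknown. No difference was tested, and every ratio describes a pair of arrays. Values are MAS5 signal intensities in linear units, and the median of all of them, 63.7 signal units, served as a floor. Values under the floor were raised to it, so a ratio with 1 array under the floor is a lower bound, and a gene was compared only if it reached the floor on 1 or both of the arrays. A difference was counted from 2-fold, a log2 ratio of 1. Over all genes, between 10611 and 11269 lay at or above the floor on an array. Of 15 melanocyte markers, 14 reached the floor on 1 array or more, and in BRAF-off cells Dct was at 23970 and Mitf at 7191. With TWIST1, Dct was under the floor and Mitf at 244.9. Of the 14 markers compared there with BRAF-on, 12 passed 2-fold downward, against 2.02% of all genes, while Sox10 (log2 ratio -0.49) and Pax3 (0.02) did not. With ZEB1, 10 of 14 passed it downward, against 3.93% of all genes. With ZEB2 and SNAIL2, 7 and 11 of 14 passed it upward, against 1.76% and 5.61%. Between BRAF-on and BRAF-off all 14 were lower, with a median log2 ratio of -0.49. Of these, 2 passed 2-fold downward, against 0.384% of all genes. No introduced factor was 2-fold higher on its own array than in BRAF-on. Zeb2 was at 1132.1 with ZEB2, the highest of the 6 arrays, against 805.9 in BRAF-on. Snai2 was at 3141.7 with SNAIL2 against 4175.4, Twist1 at 278.4 with TWIST1 against 338.2, and Zeb1 at 108.8 with ZEB1 against 133.8 in BRAF-on, so the factor names below are those of the labels. The spiked poly-A controls stood 2.55-fold above BRAF-on on the SNAIL2 array (median of 24 probe sets) and between 0.88 and 1.42 times BRAF-on on the others. The 3′ to 5′ signal ratio, a sign of RNA quality, was 0.79 to 0.84 for Gapdh and 1.36 to 1.54 for beta-actin.

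Fabp4 had the widest range of the 3 genes. Its brightest probe set, 1417023_a_at, was at 400.7 with ZEB2, 108.1 with SNAIL2, 3616.1 with TWIST1, 6449.3 with ZEB1, 958.8 in BRAF-on and 15.4 in BRAF-off. The signal was under the floor without BRAF activation and above it on all 5 activated arrays, among which it spanned 59.7-fold. The second probe set, 1451263_a_at, was at 152.1 with ZEB2, 51.4 with SNAIL2, 1634.9 with TWIST1, 3565.9 with ZEB1, 490.2 in BRAF-on and 17.5 in BRAF-off. Both probe sets placed the arrays in the same order from ZEB1 down to SNAIL2, and on the 4 arrays where both reached the floor the first was 1.81 to 2.64 times the second. The remaining pair of Fabp4 probe sets, 1424155_at and 1425809_at, stayed under the floor on every array, with highest values of 41.1 and 35.5, and gives no ratio.

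Csn3 was above the floor on all 6 arrays, and the ZEB1 array stood far above the others. Probe set 1419735_at was at 1152.5 with ZEB2, 526.3 with SNAIL2, 2094.2 with TWIST1, 14634.3 with ZEB1, 2893.6 in BRAF-on and 430.1 in BRAF-off. The ZEB1 array stood 5.06-fold above the next one, BRAF-on, and the SNAIL2 array lay 1.22-fold above BRAF-off. BRAF-on and TWIST1 were 1.38-fold apart, and TWIST1 and ZEB2 were 1.82-fold apart, so those neighbours in the order lie within 2-fold. The other Csn3 probe set, 1451851_a_at, reached the floor only with ZEB1, at 134.3, which is at least 2.11-fold above the other arrays.

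Usp17la varied least. Its single probe set, 1420773_at, was at 1279.4 with ZEB2, 864.3 with SNAIL2, 3316.4 with TWIST1, 4130.1 with ZEB1, 2100 in BRAF-on and 336.3 in BRAF-off. All 5 activated arrays lay at least 2.57-fold above BRAF-off. Neighbours among the activated arrays were 1.25-fold (ZEB1 and TWIST1) to 1.64-fold (BRAF-on and ZEB2) apart, all within 2-fold. Among the activated arrays Usp17la spanned 4.78-fold and Csn3 27.8-fold.

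**Figure D1:**
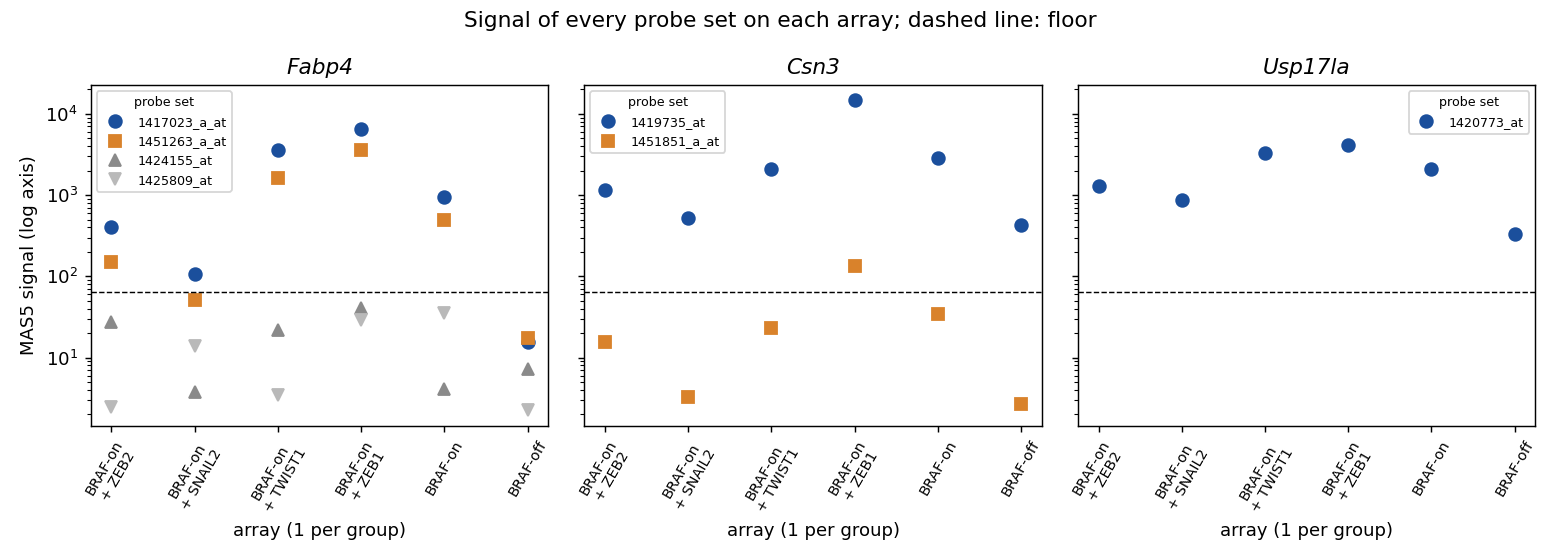
MAS5 signal (log axis) of all 7 probe sets of Fabp4, Csn3 and Usp17la on the 6 arrays, 1 array per group, with the floor of 63.7 as a dashed line. The brightest probe set of each gene is lowest in BRAF-off and highest with ZEB1, and 2 Fabp4 probe sets lie under the floor on every array.

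BRAF activation was the contrast by which the 3 genes were chosen, so its values are given as a description. Fabp4 in BRAF-on exceeded BRAF-off by at least 15.0-fold (log2 ratio at least 3.91). By that bound it stood at place 3 from the top of the 11200 genes compared, so its place is a bound too. The second Fabp4 probe set gave at least 7.69-fold. Csn3 was 6.73-fold higher (log2 ratio 2.75), place 8, and Usp17la 6.24-fold higher (log2 ratio 2.64), place 11. The other Csn3 probe set was under the floor on both arrays and gives no ratio here. All 3 thus passed 2-fold, as 116 genes or 1.04% of those compared did, while 0.384% were as much lower. The labels name no cells given the drug but lacking the construct, so the drug and BRAF activation cannot be told apart.

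ZEB2 and SNAIL2 went with lower signals of all 3 genes. With ZEB2, Csn3 was 2.51-fold and Fabp4 2.39-fold lower than in BRAF-on, and Usp17la was lower by 1.64-fold. That is 2 of 3 past 2-fold, against 0.583% of all 11322 genes lower and 1.76% higher by that size. The genes were chosen for a high signal in BRAF-on relative to BRAF-off. That choice favours signals lower than BRAF-on on other arrays, so the counts with ZEB2 and SNAIL2 are a description only. With SNAIL2, Fabp4 was 8.87-fold lower than in BRAF-on (log2 ratio -3.15), place 6 from the bottom of 11416 genes. Csn3 was 5.50-fold lower (-2.46) and Usp17la 2.43-fold lower (-1.28). All 3 passed 2-fold there, where 6.42% of all genes were lower and 5.61% higher by that size. The second Fabp4 probe set was 3.22-fold lower with ZEB2 and at least 7.69-fold lower with SNAIL2.

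With ZEB1 all 3 genes were above BRAF-on, and with TWIST1 they went different ways. With ZEB1, Fabp4 was 6.73-fold higher than in BRAF-on (log2 ratio 2.75), place 8 of 11614 genes from the top. Csn3 was 5.06-fold higher (2.34), and Usp17la was at 1.97-fold (0.98), just under the size that counts, so 2 of 3 passed, against 4.49% of all genes higher and 3.93% lower. With TWIST1, Fabp4 was 3.77-fold higher (1.92), Usp17la 1.58-fold higher (0.66) and Csn3 1.38-fold lower (-0.47). One of the 3 was therefore past 2-fold on the higher side, against 2.03% of all 11334 genes higher and 2.02% lower. That call is lost with the median of the 4 Fabp4 probe sets, which gave a log2 ratio of 0.52. These comparisons share the BRAF-on array, which also helped to choose the genes. A high or low reading on that array would move all the comparisons together.

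**Figure D2:**
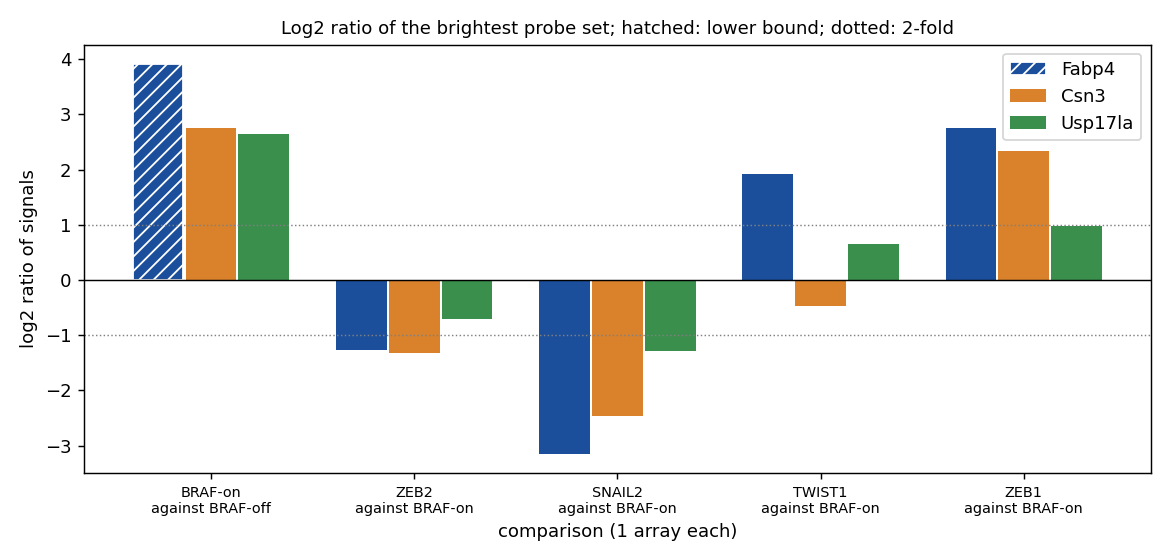
Log2 ratio of the brightest probe set of each gene for BRAF-on against BRAF-off and for each added factor against BRAF-on, with 1 array on each side, hatching for a lower bound and dotted lines at 2-fold. ZEB2 and SNAIL2 bars point down for all 3 genes, ZEB1 bars point up, and TWIST1 has Csn3 at -0.47 beside Fabp4 at 1.92.

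Set against BRAF-off, which the comparisons above leave aside, the genes stood at different distances from the state without activation. With ZEB2, Fabp4 (at least 6.29-fold), Usp17la (3.80-fold) and Csn3 (2.68-fold) were all still above BRAF-off, where 1.02% of 11088 genes were 2-fold higher and 0.325% lower. For Fabp4 the second probe set gave at least 2.39-fold there, and the median of its probe sets a log2 ratio of 0.01. With SNAIL2, Usp17la was 2.57-fold above BRAF-off, Fabp4 at least 1.70-fold and Csn3 1.22-fold, so 1 of 3 passed 2-fold, against 4% of genes higher and 5.31% lower. Usp17la had the smallest difference between SNAIL2 and BRAF-on, while the bound for Fabp4 above BRAF-off has no upper limit and its second probe set was under the floor on both arrays. With TWIST1, Fabp4 was at least 56.7-fold, Usp17la 9.86-fold and Csn3 4.87-fold above BRAF-off, where 3.11% of genes were 2-fold higher and 2.61% lower. With ZEB1, Fabp4 was at least 101-fold, Csn3 34.0-fold and Usp17la 12.3-fold above BRAF-off, where 7.06% of genes were higher and 5.20% lower. The second Fabp4 probe set gave at least 25.7-fold with TWIST1 and at least 56.0-fold with ZEB1. These ratios share the BRAF-off array, which also helped to choose the genes.

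Genes with a like course were sought for each of the 3 genes by the root mean square (RMS) difference between gene-centred log2 signals over the 6 arrays, among 628 genes with a range of at least 4-fold and a highest signal of at least 2 times the floor. All of these genes share the same 6 arrays. For Fabp4 the nearest were Mmp1a (RMS difference 0.62), Serpinb2 (0.88), Mmp13 (0.90), Evi2a (0.93) and Mmp3 (0.94). Of these, Mmp1a and Mmp13 encode collagenases, Mmp3 a stromelysin and Serpinb2 an inhibitor of plasminogen activators. Mmp1a was at 433.4 with ZEB2, 170.1 with SNAIL2, 2313.1 with TWIST1, 2627.8 with ZEB1, 945.9 in BRAF-on and 10.1 in BRAF-off, which is the same order of arrays as for Fabp4. Its SNAIL2 signal was nearer to BRAF-on than that of Fabp4 was.

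For Csn3 the nearest genes were Nefm (0.38), a neurofilament subunit, Gch1 (0.46), the first enzyme of tetrahydrobiopterin synthesis, Evi2a (0.51), Cd53 (0.51), a leukocyte tetraspanin, and Mmp13 (0.58). Nefm was at 203.3 with ZEB2, 117.4 with SNAIL2, 271.2 with TWIST1, 1376.2 with ZEB1, 422.8 in BRAF-on and 40.9 in BRAF-off. Nefm shares with Csn3 the lower signal with TWIST1 than in BRAF-on, which Gch1, Evi2a, Cd53 and Mmp13 do not. For Csn3 (1.38-fold) and Nefm alike that difference is within 2-fold, so it does not set those arrays apart by size. The 3 genes themselves were 0.86 (Csn3 and Usp17la), 1.12 (Fabp4 and Csn3) and 1.29 (Fabp4 and Usp17la) apart.

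For Usp17la the nearest genes were Zfp352 (0.26), Tcstv1 (0.26), D13Ertd608e (0.30), Gm20767 (0.35) and BC080696 (0.39). Zfp352 and Tcstv1 are transcribed at the 2-cell stage of the mouse embryo, when the embryo's own genome is first switched on. Zfp352 was at 166.9 with ZEB2, 147.4 with SNAIL2, 545.3 with TWIST1, 543.2 with ZEB1, 375.7 in BRAF-on and 73.3 in BRAF-off. Tcstv1 was at 256.4 with ZEB2, 107.1 with SNAIL2, 708.2 with TWIST1, 781.7 with ZEB1, 435.9 in BRAF-on and 50.3 in BRAF-off. Both were lowest in BRAF-off, low with SNAIL2 and high with TWIST1 and ZEB1, as Usp17la was. Tcstv1, D13Ertd608e and Gm20767 all lie on chromosome 13, while Zfp352 is on chromosome 4, BC080696 on chromosome 5 and Usp17la on chromosome 7. Whether related copies of these genes share probes was not tested. The 5 names depend on the floor: at the 75th percentile none of them stayed among the nearest 5 (0 of 5), and with no floor 2 did.

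**Figure D3:**
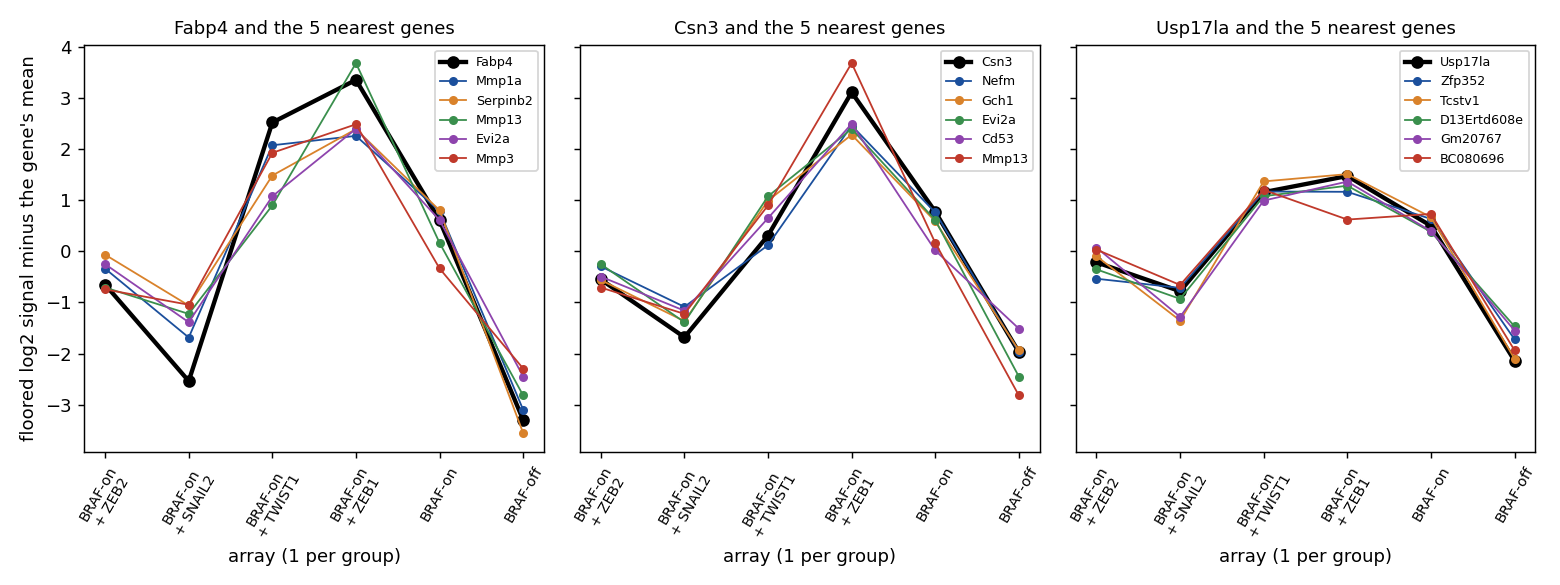
Floored log2 signal minus the gene's mean on the 6 arrays, 1 per group, for Fabp4, Csn3 and Usp17la (black) and the 5 genes nearest to each (colours). The Usp17la lines lie close together, with RMS differences of 0.26 to 0.39, those of Fabp4 lie further apart, at 0.62 to 0.94, and Csn3 is highest with ZEB1.

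Since Zfp352 and Tcstv1 were named by their likeness, a list of 26 genes known from the 2-cell embryo was written down after that was seen, and its values are a description only. A probe set of their own was found for 12 of them, and 9 reached the floor on at least 1 array. Between BRAF-on and BRAF-off 8 entered, and 5 of them passed 2-fold on the higher side, Usp17la, Tcstv1, Zfp352, AF067061 and Sp110, where 1.04% of all genes did. The list median was 1.85 against 0 for all genes compared. Both include Usp17la, which was chosen on this contrast, and Zfp352 and Tcstv1, which were chosen for their likeness to it. AF067061 was at 590.3 with ZEB2, 198.4 with SNAIL2, 1326.1 with TWIST1, 1318.2 with ZEB1, 860.3 in BRAF-on and 178.1 in BRAF-off. A probe set that the annotation gives to several Zscan4 copies at once, and which therefore names no single gene, was at 399.1 with ZEB2, 190.8 with SNAIL2, 1026.7 with TWIST1, 1029.5 with ZEB1, 630.3 in BRAF-on and 111.8 in BRAF-off, a ratio of 5.64 for that last pair. Zscan4 genes encode nuclear proteins of the 2-cell embryo that act at telomeres. Both probe sets thus follow the same order as Usp17la except that TWIST1 and ZEB1 are level.

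The remaining genes of that list differed among themselves. Tcstv3 was at 73.95 with ZEB2, 56.67 with SNAIL2, 297.2 with TWIST1, 276.3 with ZEB1, 111 in BRAF-on and 33.94 in BRAF-off, so it passed 2-fold with TWIST1 (log2 ratio 1.42 to BRAF-on) and ZEB1 (1.32). AF067063 had 0.99 and 0.91 there, and Spz1, under the floor in BRAF-on, had at least 1.14 with ZEB1. Nelfa, a subunit of a transcription elongation complex, was at 1052.7 with ZEB2, 1018.8 with SNAIL2, 1223.2 with TWIST1, 1024.7 with ZEB1, 1061.6 in BRAF-on and 930.3 in BRAF-off. Duxf3, the copy of the factor Dux that starts this program in embryos, was under the floor on all 6 arrays, as were Arg2 and Tdpoz1. Against BRAF-on the list median was -0.60 with ZEB2, -1.04 with SNAIL2, 0.66 with TWIST1 and 0.91 with ZEB1. At least 2-fold lower were 1 of 8 members with ZEB2 and 4 of 8 with SNAIL2, against 0.583% and 6.42% of all genes. The ZEB2 call was Zfp352, and the SNAIL2 calls were Usp17la, Tcstv1, Zfp352 and AF067061. Zfp352 and Tcstv1 were named for a course like that of Usp17la over these same arrays. The counts and medians are therefore a description only. At least 2-fold higher were 1 of 9 with TWIST1 and 2 of 9 with ZEB1, against 2.03% and 4.49% of all genes. Of 10 pluripotency genes, a list also written down then, 8 were under the floor on all arrays, among them Pou5f1 and Nanog. Only 1 or 2 of them entered each of the 5 comparisons, and none was 2-fold apart. Of all genes, 0.384% to 6.42% were, in each direction.

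**Figure D4:**
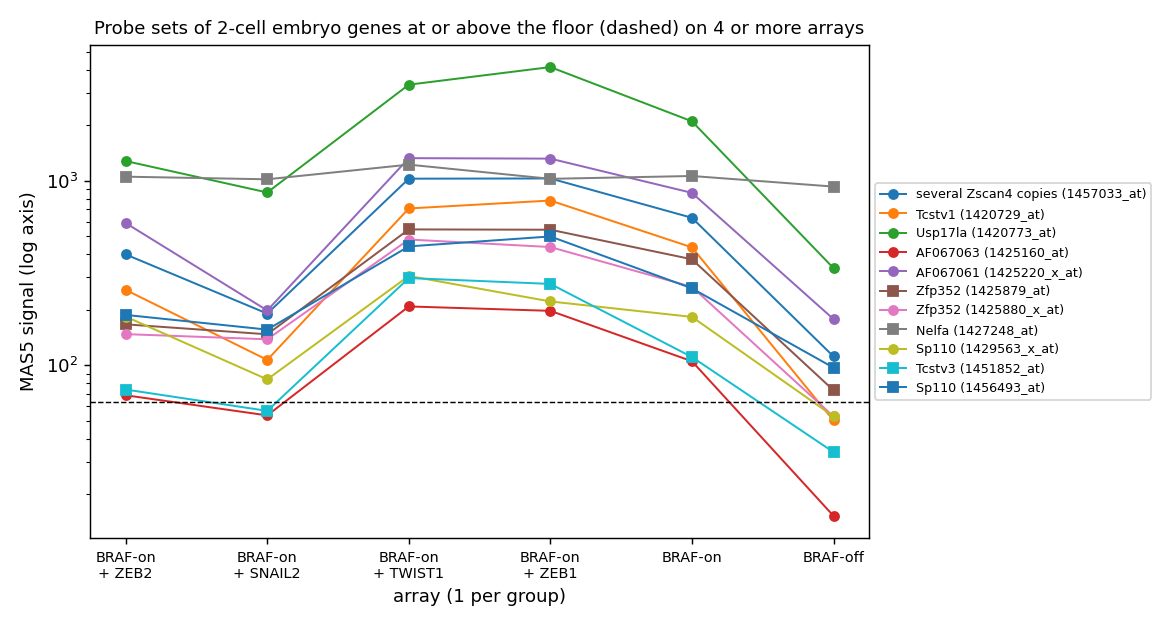
MAS5 signal (log axis) on the 6 arrays, 1 per group, of every probe set of the 2-cell embryo list that reached the floor of 63.7 (dashed) on 4 or more arrays, with the probe set shared by several Zscan4 copies. All lines are lowest in BRAF-off and lower with SNAIL2 than in BRAF-on, with Nelfa nearly flat at 930.3 to 1223.2.

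Usp17la belongs to a family of near copies on chromosome 7, and the windows around their starts show how alike these copies are there. They are not the stretch that the probes target, and what the probe set can tell apart was not tested. The 300 bases around the start of Usp17la and of its relative Usp17lc are shown here, from 250 before to 50 after the start, from RefSeq on GRCm38.p6, at chr7:104856766-104857065 on the plus strand and chr7:103416446-103416745 on the plus strand. Capitals mark each match to the E-box CANNTG, the core bound by the TWIST, ZEB and SNAIL families.
Usp17la: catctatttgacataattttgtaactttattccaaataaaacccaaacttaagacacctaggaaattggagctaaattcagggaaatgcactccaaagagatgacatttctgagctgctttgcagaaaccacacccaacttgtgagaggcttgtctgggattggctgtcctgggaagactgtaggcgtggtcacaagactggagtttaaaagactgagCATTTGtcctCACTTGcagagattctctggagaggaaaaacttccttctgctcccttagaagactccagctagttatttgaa
Usp17lc: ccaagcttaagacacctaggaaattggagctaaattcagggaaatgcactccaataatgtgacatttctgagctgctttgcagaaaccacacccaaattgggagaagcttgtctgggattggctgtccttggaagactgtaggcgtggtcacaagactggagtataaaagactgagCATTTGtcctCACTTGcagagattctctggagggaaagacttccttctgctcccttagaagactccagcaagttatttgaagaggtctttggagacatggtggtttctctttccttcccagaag
Aligned to each other, 257 bases of these windows paired and 95.3% were identical. Usp17la shared 97.4% of 234 aligned bases with Usp17ld and 92.6% of 270 with Usp17lb. The 2 probe sets that the annotation gives to 2 other Usp17-like genes at once stayed under the floor on every array, at up to 16.0 and 40.9, so of the family only the probe set paired with Usp17la gave a signal. Usp17lb and Usp17le have no probe set of their own here, and whether they add signal to that of Usp17la was not tested.

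Motifs were read on both strands of the same windows. Both E-boxes of Usp17la begin 32 and 22 bases before the start, and a pair with the same spacing is in the windows of Usp17lb, Usp17lc and Usp17ld. An E-box of this kind occurs in 72.3% of the 32851 windows in the table. The variant CAGGTG, preferred by ZEB and SNAIL factors and a special case of CANNTG, was in none of the 4 windows and is in 20.2% of all. The AP-1 motif TGANTCA was in none of them and is in 7.81% of all. The STAT motif TTCNNNGAA was in the window of Usp17la 1 time, 174 bases before the start. It was 2 times each in the windows of Usp17lc and Usp17ld and not in that of Usp17lb. This motif is in 8.30% of all windows. A match describes letters only.

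Genes related to each of the 3 by family or pathway were read from lists. Of 14 fatty acid binding and related genes with a probe set, 8 were under the floor on all arrays, and 4 entered the comparison of BRAF-on with BRAF-off. Of these only Fabp4, which was chosen on this contrast, passed 2-fold. Of all genes, 1.04% were that much higher and 0.384% lower. Fabp5, the epidermal form, was at 18600 with ZEB2, 12840 with SNAIL2, 10290 with TWIST1, 5369 with ZEB1, 12590 in BRAF-on and 13750 in BRAF-off. It was 2-fold lower with ZEB1 than in BRAF-on (log2 ratio -1.23), the array on which Fabp4 was highest. Pmp2, the myelin form and a near neighbour of Fabp4 on chromosome 3, had log2 ratios to BRAF-on of -1.84 with TWIST1 and -1.15 with ZEB1, again where Fabp4 was high. Fabp9, on the same flank as Pmp2, was under the floor everywhere. On the other flank Fabp12 reached it only with ZEB1, at 80.9, and Impa1 stayed between 2443.7 and 3047.8.

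Most fat cell genes were under the floor or within 2-fold between BRAF-on and BRAF-off. Of 25 fat cell and PPAR gamma genes with a probe set, 8 stayed under the floor on all arrays. These include Pparg, the receptor that switches on Fabp4 in fat cells, Adipoq, Lpl, Cd36 and Lep. None of the 14 that entered between BRAF-on and BRAF-off was 2-fold apart, and the median was -0.09. Of all genes 1.04% were higher and 0.384% lower by that size, so none of 14 is near the share of all genes. With ZEB1, Angptl4, an inhibitor of lipoprotein lipase, had a log2 ratio of 1.24 to BRAF-on and was the only one of 14 past 2-fold, against 4.49% of all genes higher. It was at 54.15 with ZEB2, 40.04 with SNAIL2, 118.7 with TWIST1, 232.2 with ZEB1, 98.10 in BRAF-on and 18.24 in BRAF-off, so the ZEB2, SNAIL2 and BRAF-off arrays were under the floor and the others had the order of Fabp4. Gpd1 (1.16 with ZEB2 and 1.17 with SNAIL2) and Scd1 (1.32 with SNAIL2), enzymes of lipid synthesis, were higher than in BRAF-on. They were the only ones past 2-fold on those arrays, 1 of 16 with ZEB2 and 2 of 15 with SNAIL2. Of all genes, 1.76% and 5.61% were that much higher there, and with so few genes the counts are a description only.

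The other caseins with a probe set stayed under the floor. Of 13 milk protein genes with a probe set, 8 were under the floor on all 6 arrays, and these include the caseins Csn1s1, Csn2, Csn1s2a and Csn1s2b and the whey protein genes Wap and Lalba. The genes next to Csn3 on chromosome 5 that have a probe set, Odam, Cabs1 and Smr3a, were under the floor as well. Xdh, which encodes xanthine dehydrogenase of the milk fat globule, was at 1343 with ZEB2, 1285 with SNAIL2, 1552 with TWIST1, 3995 with ZEB1, 1618 in BRAF-on and 1155 in BRAF-off, a log2 ratio of 1.30 for ZEB1 against BRAF-on. Mfge8, another milk fat globule gene, had 0.97 there.

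Among 10 measured genes that regulate casein or answer to the same pathway, none was 2-fold apart between BRAF-on and BRAF-off, nor with ZEB2, SNAIL2 or TWIST1 against BRAF-on. Of all genes, 0.384% to 6.42% were that far apart there, in each direction, so none of 10 is near those shares. With ZEB1, where Csn3 was highest, 2 of 10 were at least 2-fold higher, against 4.49% of all genes. Cish, a feedback inhibitor that STAT5 induces, was at 150.2 with ZEB2, 210.7 with SNAIL2, 182.1 with TWIST1, 401.0 with ZEB1, 141.4 in BRAF-on and 123.2 in BRAF-off, a log2 ratio of 1.5 for ZEB1 against BRAF-on. Socs2, another cytokine feedback inhibitor, had 1.16. Stat5a itself had 0.69 there and Stat5b 0.11. Elf5, the mammary factor that raises caseins, was under the floor throughout, and Prlr has no probe set of its own here. Of genes near Usp17la in function, a list of 10 deubiquitinase relatives and cytokine receptor genes with a probe set, 5 were under the floor on all arrays. Of the 3 to 5 that could be compared, none was 2-fold apart in any of the 5 comparisons. Of all genes, 0.384% to 6.42% were, in each direction, so with so few genes none is near those shares.

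Known outputs of ERK, the kinase below BRAF, are the nearest frame for a BRAF response. Of 23 entered, 3 (Dusp5, Fosl1 and Lif) passed 2-fold upward between BRAF-on and BRAF-off, against 1.04% of all genes, with a list median of 0.11. The others were within 2-fold. Of the 23, 17 had a log2 ratio above 0 and 6 below, among the latter Dusp4 (-0.29), Dusp6 (-0.06) and Etv5 (-0.38). Dusp5, an ERK phosphatase, was at 236.5 with ZEB2, 249.4 with SNAIL2, 566.2 with TWIST1, 1065 with ZEB1, 643.8 in BRAF-on and 198.3 in BRAF-off. With TWIST1 its log2 ratio to BRAF-on was -0.19, within 2-fold as for Csn3 (-0.47). With ZEB2 and SNAIL2 Dusp5 had -1.44 and -1.37, so these arrays were about level. ZEB2 stood above SNAIL2 by 3.71-fold for Fabp4, 2.19-fold for Csn3 and 1.48-fold for Usp17la, the last within 2-fold. Fosl1, an AP-1 subunit, was at 605.7 with ZEB2, 709.2 with SNAIL2, 587.2 with TWIST1, 1142 with ZEB1, 995.5 in BRAF-on and 412.2 in BRAF-off.

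Markers of other cells that make Fabp4 or Csn3 were looked at on the same arrays. Of 15 macrophage and leukocyte markers, 11 were under the floor on every array, including Ptprc, Adgre1, Cd14, Aif1 and the C1q genes. Cd68 had a log2 ratio to BRAF-on of 1.87 with ZEB1 and 1.01 with SNAIL2, the activated array where Fabp4 was lowest. With SNAIL2 the others that entered were lower than in BRAF-on: Csf1r (-0.13), Lyz2 (-0.34) and Fcer1g (-0.54, a bound). With ZEB1 all 4 that entered were above BRAF-on, with a median log2 ratio of 0.67. The summed signal of the 15 markers was 1419 with ZEB1 and 738 to 946 on the other arrays. Of 12 endothelial markers, 7 were under the floor throughout, Pecam1, Tek, Tie1 and Cd34 among them, and the summed signal was 723 in BRAF-off and 791 to 1137 on the others. Cdh5, an endothelial cadherin, was at 62.92 with ZEB2, 74.40 with SNAIL2, 145.2 with TWIST1, 189.1 with ZEB1, 88.35 in BRAF-on and 20.08 in BRAF-off. Other endothelial markers differed from it: the log2 ratio to BRAF-on was 0.60 with ZEB2, 0.74 with SNAIL2 and -0.72 with TWIST1 for Egfl7, -0.89 with TWIST1 and -0.30 with ZEB1 for Kdr, and -0.35 with ZEB1 for Flt1. The list median with ZEB1 was -0.02. Of 10 mammary epithelial markers, 4 were under the floor throughout, with a summed signal of 309 to 673. Keratinocyte markers had 7 of 10 under the floor and summed to 444 to 665, and fibroblast markers summed to 22321 with TWIST1, 13015 with ZEB1 and 8881 to 10277 on the others. Melanocyte markers summed to 145898 with ZEB2, 182833 with SNAIL2, 7575 with TWIST1, 40540 with ZEB1, 82377 in BRAF-on and 111885 in BRAF-off, highest where Fabp4 was low among the activated arrays. The part of such cells, and of the state of the melanocytes, in the signals of Fabp4, Csn3 and Usp17la was not tested, and in a culture measured as a whole, more cells with a transcript and more transcript per cell cannot be told apart.

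By the brightest probe set, all 3 genes share one order of arrays but for BRAF-on and TWIST1. BRAF-off was lowest, then SNAIL2, then ZEB2, and ZEB1 was highest. Several steps of it are within 2-fold: Csn3 with SNAIL2 was 1.22-fold above BRAF-off, and the Usp17la neighbours among activated arrays were 1.25-fold to 1.64-fold apart. The second Fabp4 probe set was under the floor with SNAIL2 and in BRAF-off, so it does not order those arrays. This order was picked after seeing the values of the 3 genes. Of 12040 genes at or above the floor on any array, 111 (0.922%) had it, and of the 628 with a range of at least 4-fold, 38 had it, Fabp4, Csn3 and Usp17la included.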

How the data were processed

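Each of the 6 arrays was hybridised with biotin-labelled RNA of 1 sample. The values deposited by the authors are linear MAS5 signal intensities. The submitters' processing notes name Affymetrix Expression Console 1.1. Trimming 2% of values at either end leaves a mean of 500 on every array. Depth has no meaning here: with 1 array per group, their number limits the precision.

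Of 45037 probe sets that are not controls, 34945 had 1 gene symbol, 932 several and 9160 none, and 34741 were matched to RefSeq by Entrez number. A gene took the probe set that was brightest on average on the log2 scale, and the deposited intensity was not normalized again. Counting and likeness were tested on simulated data. The text names the 3 genes, the 5 most like each, the family and regulator genes past 2-fold (otherwise up to 4), flanking genes and the introduced factors. Other genes named, including those under the floor, the markers and the 2-cell and pluripotency lists, were picked with values in view. The members and lists were chosen with earlier results of these data known. Tools were Python 3.11.15, numpy 2.4.6, pandas 2.3.3, biopython 1.88 and matplotlib 3.10.9.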

Additional observations from a re-analysis of the deposited data

How the results depend on the processing

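Every log2 ratio of Fabp4, Csn3 and Usp17la kept its direction under each alternative that gave a value, and 201 of these values stayed near the reported one while 27 moved. With 1 array per group the spread is unknown, and no setting can supply it. No paired analysis was possible because each group has 1 array. Without the probe sets marked as matching more than 1 transcript, Fabp4 was left with its 2 dim probe sets only and has no value.

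Most of the moved values were those of Fabp4. Its log2 ratio of BRAF-on against BRAF-off was 2.85 for a 60th percentile floor, 1.01 for a 75th percentile floor, 5.96 with no floor, 1.05 with the median of its probe sets and 2.94 with its second probe set, an alternative added after seeing the data. Against BRAF-off in the same order of settings, TWIST1 gave 4.77, 2.92, 7.88, 1.57 and 4.68, and ZEB1 gave 5.60, 3.76, 8.71, 2.59 and 5.81. ZEB2 against BRAF-off gave 1.59 at the 60th percentile, 4.70 with no floor, 0.01 with the median and 1.25 with the second probe set. SNAIL2 against BRAF-off gave 2.81 with no floor and 1.12 with the floor as a pseudocount. Against BRAF-on, SNAIL2 gave -1.01 at the 75th percentile and -1.05 with the median, and the median gave 0.52 for TWIST1 and 1.54 for ZEB1, since it averages in the dim probe sets. Csn3 moved once, to 4.46 for ZEB1 against BRAF-off with the median, and Usp17la once, to 0.86 for SNAIL2 against BRAF-off at the 75th percentile.

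Counts of genes apart are given for BRAF-on against BRAF-off, then ZEB2, SNAIL2, TWIST1 and ZEB1 against BRAF-on, then the same 4 against BRAF-off. They were 46, 26, 331, 153, 197, 24, 185, 244 and 416 at 3-fold, 21, 76, 713, 121, 424, 19, 505, 200 and 600 for a 75th percentile floor, and 3745, 3529, 4919, 4095, 4327, 3660, 4739, 4201 and 5221 with no floor. At the 60th percentile BRAF-on against BRAF-off gave 63, ZEB2 and TWIST1 against BRAF-on 169 and 303, and ZEB2 against BRAF-off 67. With the floor as a pseudocount ZEB2 gave 147 against BRAF-on and 85 against BRAF-off.

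The 5 genes most like each member depended on the floor. Of those for Usp17la, 3 were shared with the floor as a pseudocount, 2 at the 60th percentile, 0 at the 75th and 2 with no floor. For Fabp4, 2 were shared at the 75th percentile, 2 with no floor and 0 with the median. For Csn3 the numbers were 1, 2 and 2.

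List members apart in any of the 5 comparisons were, at 3-fold, 4 for the 2-cell list, 1 for ERK output, 0 for fat cell genes, 1 for milk proteins and 0 for casein regulators. At the 75th percentile there was 1 each for the 2-cell list, fat cell genes and casein regulators. Fat cell genes had 1 with the pseudocount and 1 with the median. With no floor there were 11 for the 2-cell list, 6 for Usp17 relatives, 14 for fat cell genes, 12 for milk proteins and 12 for the fatty acid binding family. ERK output had 4 without probe sets of several transcripts. Beyond the construction of each setting, the cause was not tested.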
